A study of Mus musculus with 6 samples.

Results

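Intracellular lipases and lipid hydrolases were followed in mouse jejunum as a set of 8 genes: Aadac, Mgll, Pnpla2, Lipe, Lipa, Lpl, Abhd5 and Faah, of 18194 genes named on the array. Every probe set whose platform annotation names exactly 1 gene, and that gene is on this list, was taken, which gave 19 of the 45101 probe sets on the Affymetrix mouse array used. Of these, 15 exceeded 4 on the log2 scale in 3 or more of the 6 mice and were tested, and every gene had at least 1 tested probe set. The mice were males on a C57BL/6 background, 7 to 10 weeks old and caged singly. All of them ate a synthetic diet high in saturated fat, with 42% of calories from milk fat and 0.2% from cholesterol, and the labels give 3 weeks of this diet for the animals whose tissue was taken but from 3 up to 8 weeks in their account of housing. The 3 wild type mice are numbered 1, 3 and 4. The 3 TIS7 SKMc15 double knockout mice, which lack Ifrd1 and Ifrd2, are numbered 1, 2 and 3. The labels give neither the removed exons nor the way the alleles were made. The title of the series is about fat uptake by the gut and obesity, and the comparison asks whether transcripts of fat-splitting enzymes differ in the jejunum when both genes are lost.

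Enterocytes take up fatty acids and monoacylglycerol from the gut lumen, rebuild them into triglyceride and either secrete it in chylomicrons or keep it for a time in cytosolic lipid droplets. Stored triglyceride is cut stepwise: ATGL (Pnpla2), switched on by its coactivator CGI-58 (Abhd5), removes a fatty acid from triglyceride, hormone-sensitive lipase (Lipe) prefers the resulting diacylglycerol, and monoacylglycerol lipase (Mgll) completes the release of glycerol. Arylacetamide deacetylase (Aadac) is a related hydrolase of the endoplasmic reticulum in liver and intestine. Lysosomal acid lipase (Lipa) splits cholesteryl esters and triglyceride delivered to lysosomes. Lipoprotein lipase (Lpl) is made mainly by fat and muscle cells and acts on the capillary wall, so it is the secreted member of the set. Fatty acid amide hydrolase (Faah) breaks down anandamide and other acylethanolamides, while Mgll also destroys 2-arachidonoylglycerol, the other main endocannabinoid.

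Deposited values are log2 expression levels made with GCRMA, a method that subtracts a sequence-based background. The median of each array was 2.87 to 2.90. The 2 targeted transcripts were much lower in every double knockout mouse, with Ifrd1 at 9.84 to 10.00 in wild type and 4.80 to 6.27 in double knockout, and Ifrd2 at 8.20 to 8.61 and 2.59 to 2.74. Markers fitted the labelled tissue: all 12 enterocyte markers on the array were tested, and the ileal genes Slc10a2, Fabp6 and Fgf15 were under 4 on every array, while Cubn, also on the ileal list, was expressed and fell by 0.78 (SE 0.10, limma adjusted p = 0.0186). The RNA came from whole pieces of tissue, so fewer cells of a type and less RNA per cell cannot be told apart. With 3 mice a group, an exact two-sided permutation test cannot give a p below 0.1, so tests below are limma's across all probe sets.

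Promoter sequences are shown for Aadac, the member that passed the test, and for its relative Lipe, because Aadac had by far the fewest G and C bases of the set. RefSeq promoters (GRCm38.p6, windows of 300 bases around a start site) matched 7 of the 8 genes, with 9 promoters in all. Capitals mark the CCAAT box (CCAAT), the GC box (GGGCGG) and an E-box (CACGTG), each sought on both strands.
Aadac, chr3:60031538-60031837, plus strand: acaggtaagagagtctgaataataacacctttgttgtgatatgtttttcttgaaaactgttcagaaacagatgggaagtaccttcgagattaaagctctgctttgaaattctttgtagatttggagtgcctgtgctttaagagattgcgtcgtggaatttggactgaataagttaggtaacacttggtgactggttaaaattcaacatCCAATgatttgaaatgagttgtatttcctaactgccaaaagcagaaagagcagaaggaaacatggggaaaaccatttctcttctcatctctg
Lipe, chr7:25395938-25396237, minus strand: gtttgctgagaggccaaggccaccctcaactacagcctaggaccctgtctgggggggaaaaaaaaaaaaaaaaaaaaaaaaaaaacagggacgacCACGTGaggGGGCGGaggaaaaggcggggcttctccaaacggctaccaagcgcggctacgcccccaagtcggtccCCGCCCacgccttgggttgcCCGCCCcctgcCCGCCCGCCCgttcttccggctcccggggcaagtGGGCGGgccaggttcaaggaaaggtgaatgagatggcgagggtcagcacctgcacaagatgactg

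The Aadac promoter held 37.3% G and C, and 6.19% of all 32851 promoters held less. The other member promoters held 57.7% (Faah) to 72.3% (Mgll), against a median of 52.7% over all promoters. At least 1 GC box lay in 7 of the 9 member promoters, among them those of Mgll, Pnpla2, Lipa, Abhd5 and Faah, and in 35.7% of all promoters. The printed Lipe promoter had 6, some of them overlapping, and neither the Aadac promoter nor the other Lipe promoter had any. A CCAAT box was present for Aadac and Lipa (37.4% of all promoters), and the E-box CACGTG for Mgll and Lipe (7.15%). These are matches of letters in short windows and say nothing on which factors act there.

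Of the 15 tested probe sets, 1 (Aadac) was lower and 0 were higher in double knockout mice, with the limma adjusted p held to 0.05. Across all 18013 tested probe sets, 4.47% were called, 1.93% lower and 2.54% higher, and with 15 probe sets 1 call is the smallest count above 0. At an unadjusted p under 0.05, 2 of the 15 were lower and 0 higher by limma, a smaller share than the 27.1% of all tested probe sets (11.8% lower and 15.3% higher). The groups did not overlap for 3 of the 15 probe sets, those of Aadac and Lipe and 1 of Mgll, all lower in double knockout, where 34.3% of all tested probe sets had no overlap, 14.8% lower and 19.5% higher. The median log2 difference, double knockout minus wild type, was -0.20 over the 15 and 0.03 over all tested probe sets. Of the 15, 10 were negative and 5 positive, where 46.4% of all tested probe sets were negative. The 15 belong to 8 genes, so their signs are not independent.

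**Figure D1:**
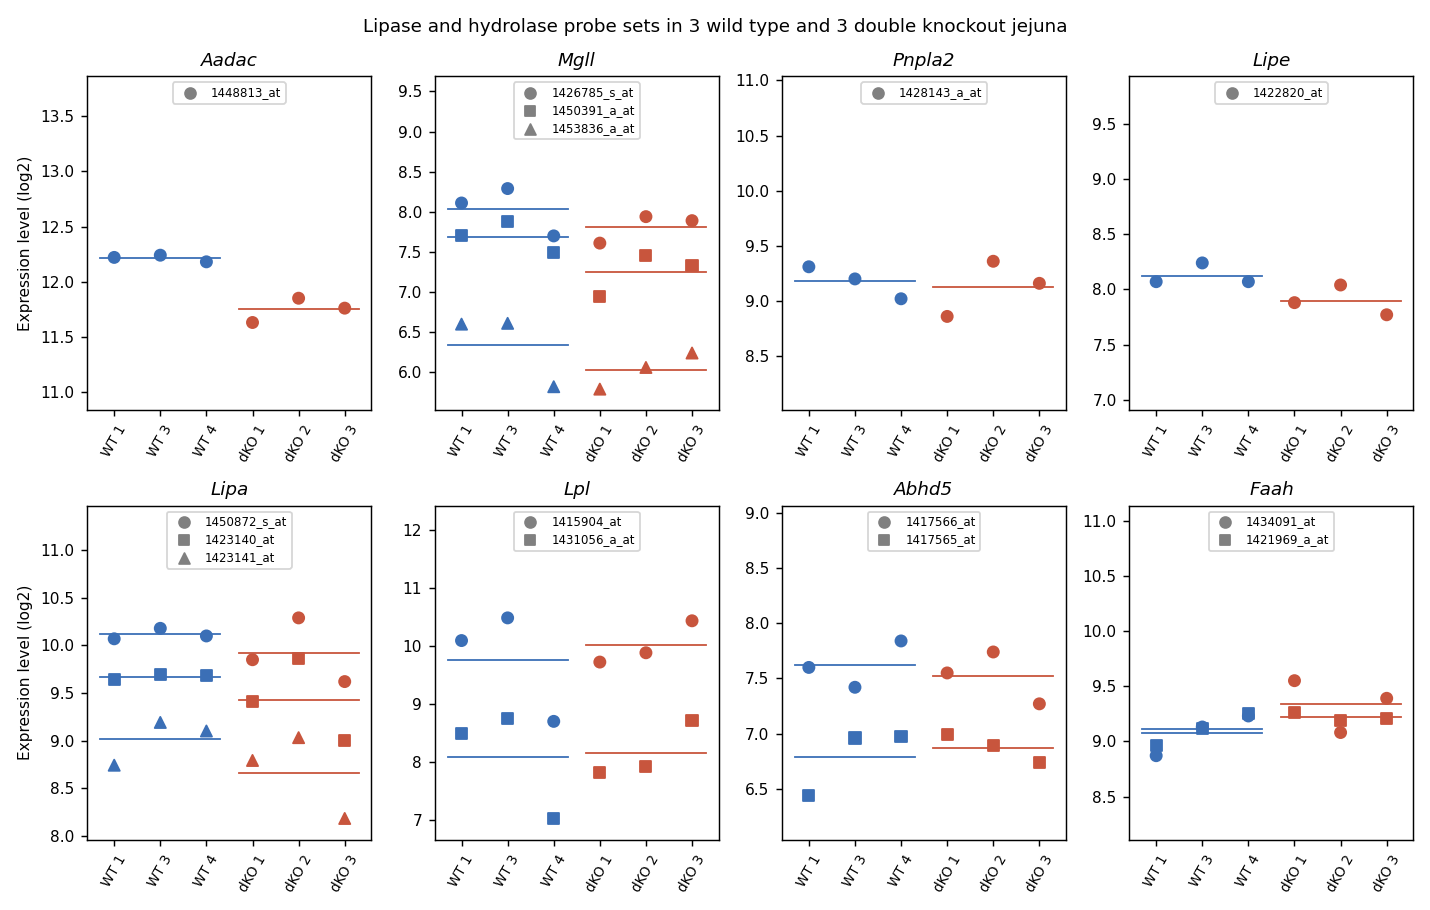
Expression level (log2) of each tested probe set in each mouse, 1 panel per gene, wild type (WT) in blue and double knockout (dKO) in red, with marker shapes for probe sets and lines at group means (n = 3). The groups are apart for Aadac, Lipe and Mgll 1450391_a_at, and wild type mouse 4 is lowest for both Lpl probe sets, at 8.70 and 7.03.

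Aadac was the only member called, and it was lower in double knockout mice. Its level was 12.22, 12.24 and 12.18 in wild type mice 1, 3 and 4 and 11.63, 11.85 and 11.76 in double knockout mice 1, 2 and 3. The wild type mice were nearly alike, and all 3 double knockout mice lay below them. The group means were 12.21 ± 0.03 and 11.75 ± 0.11 (SD, n = 3). The log2 difference was -0.47 ± 0.09 (SE; limma adjusted p = 0.0423), a ratio of 0.724 with a 95% interval of 0.625 to 0.84. The call was close to the threshold and was lost in each of the 6 fits that left out 1 mouse, where the difference ran from -0.52 to -0.41 and the limma adjusted p from 0.054 to 0.131. It was also lost without the filter on dim probe sets (adjusted p = 0.0685), after quantile normalization (0.0578) and with RNA quality as a covariate (0.17), while the difference stayed between -0.53 and -0.42. That covariate is the mean 3′ minus 5′ log2 difference of 4 control transcripts. It was 1.41, 1.74 and 1.59 in wild type and 1.66, 1.85 and 1.79 in double knockout, so it is not free of genotype.

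The mean of the enterocyte markers moved in the same direction by less. This mean log2 level over 12 genes was 13.45, 13.44 and 13.49 in wild type and 13.38, 13.33 and 13.29 in double knockout, a difference of -0.13. Of the 12, 9 had groups apart, all lower, with 0 called by limma (3 lower and 0 higher at an unadjusted p under 0.05). Differences were negative for 11 of them and positive for 1, and single markers varied. Apob was at -0.33 ± 0.08 on its brightest probe set and at -0.67 ± 0.20 on a dimmer one (limma adjusted p = 0.0699 and 0.103). Some markers were very bright, such as Fabp1 at 14.13 to 14.22. Whether levels this high understate a fall was not tested. Over all 9673 tested genes with 1 probe set each, the background for this and every list that follows, 28.0% had an unadjusted p under 0.05 (10.4% lower, 17.6% higher), and the groups were apart for 36.7% (14.2% lower, 22.5% higher). Relative to the mean of the enterocyte markers, a scaling added after seeing the data, Aadac was at -0.34 ± 0.10 (SE) and did not pass (limma adjusted p = 0.0756). The part of enterocyte RNA in the Aadac difference was not tested. The same scaling moved the median of all tested probe sets from 0.03 to 0.15. Hnf4g, a nuclear receptor of the enterocyte and 1 of 12 tested transcription factors on a list of those known to act on lipase genes, stood at 10.60, 10.37 and 10.68 in wild type and 9.90, 9.91 and 9.50 in double knockout. It fell by 0.78 (SE 0.15, limma adjusted p = 0.0412). Its other 2 tested probe sets were at -1.27 ± 0.18 and -1.47 ± 0.54 (limma adjusted p = 0.0255 and 0.147). Hnf4a, a relative of Hnf4g on the same list, was at 0.11 ± 0.08 on its brightest probe set (limma adjusted p = 0.392). The other Hnf4a probe sets were at -0.23 to -0.16 and did not pass. The list was chosen with earlier results of these data known, and a link between Hnf4g and Aadac was not tested. By the closeness of centred log2 values over the 6 arrays, the genes most like Aadac were Bag4, Erlec1 and Tmem191c, with root mean square differences of 0.026, 0.037 and 0.038.

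**Figure D2:**
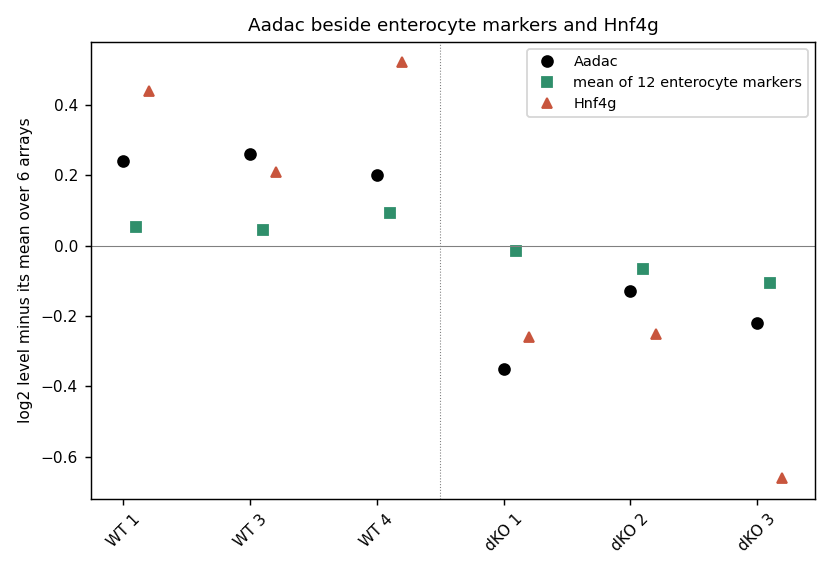
Log2 level of Aadac, of the mean of 12 enterocyte markers and of Hnf4g in each mouse, each minus its own mean over the 6 arrays. All 3 are lower in every double knockout mouse (dKO) than in any wild type mouse (WT), with the smallest step for the enterocyte markers (-0.13).

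The enzymes of the lipolysis chain gave no call. Pnpla2, which starts the chain, stood at 9.31, 9.20 and 9.02 in wild type and 8.86, 9.36 and 9.16 in double knockout on its bright probe set. The groups overlapped fully, and the difference was -0.05 ± 0.15 (SE), with a 95% interval of -0.41 to 0.31 (limma adjusted p = 0.845). Its coactivator Abhd5 had 7.60, 7.42 and 7.84 against 7.55, 7.74 and 7.27 on 1417566_at (difference -0.10, interval -0.48 to 0.28). The other bright Abhd5 probe set, 1417565_at, gave 6.44, 6.96 and 6.97 against 6.99, 6.89 and 6.74 (0.08, interval -0.31 to 0.47). The Abhd5 gene lies on chromosome 9, which also carries Ifrd2; none of the other members shares a chromosome with Ifrd1 or Ifrd2. The limma adjusted p-values for Abhd5 were 0.712 and 0.78.

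Lipe was a little lower in each double knockout mouse, without passing. Its values were 8.07, 8.24 and 8.07 in wild type and 7.88, 8.04 and 7.77 in double knockout, so the groups just failed to meet. The difference was -0.23 ± 0.11 (SE), with a 95% interval of -0.48 to 0.03 and a limma adjusted p of 0.219. Relative to the enterocyte markers it was -0.10 ± 0.11.

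Mgll was measured by 3 bright probe sets, and all had a negative difference. On 1450391_a_at the values were 7.70, 7.88 and 7.49 in wild type and 6.95, 7.46 and 7.33 in double knockout. The groups were apart by a narrow margin, with a difference of -0.44 ± 0.17 (SE), an interval of -0.83 to -0.05, an unadjusted p of 0.0332 and a limma adjusted p of 0.151. On 1426785_s_at wild type mice had 8.11, 8.29 and 7.70 and double knockout mice 7.61, 7.94 and 7.89. On 1453836_a_at the values were 6.60, 6.61 and 5.82 against 5.79, 6.06 and 6.24. On both of these wild type mouse 4 lay among the double knockout mice, and the differences were -0.21 ± 0.17 and -0.31 ± 0.24 (limma adjusted p = 0.46 and 0.429). Wild type mouse 4 was the lowest of its group on all 3 probe sets, and double knockout mouse 1 the lowest of the other group. On 1426785_s_at and 1453836_a_at the differences were -0.38 and -0.57 without wild type mouse 4 and -0.09 and -0.18 without wild type mouse 3, and none of these passed.

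**Figure D3:**
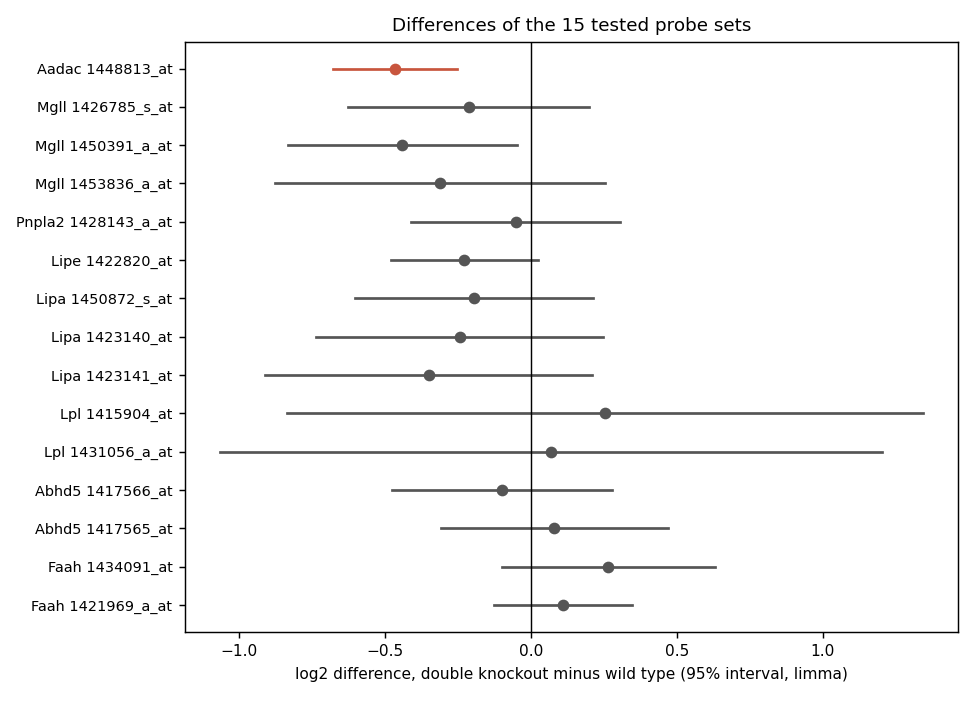
Log2 difference, double knockout minus wild type, for the 15 tested probe sets (points) with limma's 95% interval (lines); the probe set that passed, Aadac, is in red. The intervals of 13 of the other 14 include 0, and those of Lpl are the widest.

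Lipa differed between mice of the double knockout group more than between the groups. On 1423140_at the wild type values were 9.64, 9.69 and 9.68, and the double knockout values 9.41, 9.86 and 9.00. On 1450872_s_at they were 10.07, 10.18 and 10.10 against 9.85, 10.29 and 9.62, and on 1423141_at 8.74, 9.19 and 9.10 against 8.79, 9.03 and 8.18. Double knockout mouse 3 was the lowest of all mice on all 3 probe sets, and mouse 2 the highest of its group. The SD on 1423140_at was 0.03 in wild type and 0.43 in double knockout, where the medians over all tested probe sets were 0.13 and 0.14. The differences were -0.25 ± 0.21, -0.20 ± 0.17 and -0.35 ± 0.24 (SE), with limma adjusted p-values of 0.477, 0.493 and 0.375. In the same order they were -0.03, -0.04 and -0.11 without double knockout mouse 3, and -0.46, -0.38 and -0.53 without double knockout mouse 2, and none of these passed.

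Lysosomal partners were read beside Lipa. Of 19 tested genes, 0 were called in either direction by limma (1 higher and 4 lower at an unadjusted p under 0.05, beside 28.0% of all tested genes), and the median was -0.11 against 0.05 over all tested genes. The groups were apart for 7 lower and 3 higher genes of the 19, beside 14.2% lower and 22.5% higher over all tested genes. Npc2 and Npc1, which pass on the cholesterol that acid lipase frees, had differences of 0.09 ± 0.11 and -0.24 ± 0.14 (SE). Tfe3, a transcription factor of lysosomal genes, stood at 6.38, 6.47 and 6.62 in wild type and 6.98, 6.86 and 6.97 in double knockout, and missed the threshold narrowly (0.45 ± 0.10, limma adjusted p = 0.0544). Its relative Tfeb was at -0.03 ± 0.09. The lysosomal protease Ctsa had -0.36 ± 0.11 (limma adjusted p = 0.0932). Macrophages are rich in acid lipase, and the mean log2 level of 10 macrophage markers was 5.94, 5.89 and 5.44 in wild type and 5.89, 6.53 and 6.19 in double knockout. It was highest in double knockout mouse 2, as Lipa was within that group on each probe set, but not lowest in mouse 3. Of these 10, 7 were tested, with 0 called by limma (1 higher and 0 lower at an unadjusted p under 0.05), and Cd68 was under 4 on every array; the part of these cells in the Lipa values was not tested.

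Of the members, Lpl had the largest SD among wild type mice. On 1415904_at the values were 10.09, 10.48 and 8.70 in wild type and 9.72, 9.88 and 10.43 in double knockout. On 1431056_a_at they were 8.49, 8.75 and 7.03 against 7.82, 7.93 and 8.71. Wild type mouse 4 was the lowest of all mice on both, and wild type mouse 3 the highest. In wild type the SD was 0.94 and 0.93, larger than that of 99.5% of all tested probe sets in each case. The differences between groups were 0.25 ± 0.46 and 0.07 ± 0.47 (SE), with intervals of -0.84 to 1.34 and -1.07 to 1.20 (limma adjusted p = 0.747 and 0.94). Without wild type mouse 4 they were -0.27 and -0.46, and without wild type mouse 3 they were 0.61 and 0.40, and none of these passed.

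By the same measure of closeness over the 6 arrays, the genes most like Lpl were Adipoq (adiponectin, a hormone of fat cells), Fabp4 (the fat cell fatty acid binding protein) and Ccdc80, with root mean square differences of 0.108, 0.119 and 0.191. Adipoq stood at 9.90, 10.38 and 8.28 in wild type and 9.53, 9.75 and 10.15 in double knockout. Fabp4 stood at 11.56, 11.91 and 10.37 against 11.30, 11.67 and 11.97. Plin4, a droplet coat protein abundant in fat cells, stood at 6.41, 7.07 and 4.60 against 6.19, 6.11 and 6.45. For these 3, as for Lpl, wild type mouse 4 was the lowest. That was not limited to fat cell genes. The mean log2 level of 8 endothelial markers was also lowest in wild type mouse 4, at 4.01 beside 4.16 to 5.07 in the others. The mean of the macrophage markers was lowest there too, at 5.44. The mean of 8 smooth muscle markers was lowest in double knockout mouse 2, at 9.40. Of 7 adipocyte markers on the array, 5 were tested, 0 were called by limma (1 higher and 0 lower at an unadjusted p under 0.05), and Cidea was under 4 on every array. Not all of the list ran this way. Pck1, an enzyme of glyceride and glucose synthesis that is also active in gut, stood at 10.43, 10.73 and 10.67 in wild type and 9.56, 10.74 and 11.64 in double knockout, with double knockout mouse 1 lowest. Lep (leptin) was lowest in double knockout mouse 3, at 2.21. Retn (resistin) and Cidec, a droplet protein, were again lowest in wild type mouse 4. Retn stood at 4.35, 4.80 and 2.98 against 4.95, 5.81 and 6.13, with the groups apart (1.58 ± 0.51, limma adjusted p = 0.113). Cidec stood at 9.25, 9.48 and 9.05 against 9.43, 9.52 and 9.65. The log2 of the summed level of the 7 markers ranged from 11.89 to 12.90 in wild type and from 12.21 to 13.17 in double knockout.

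A fit that held the Adipoq level as a covariate was chosen after the data had been seen. Lpl is left out of it here, because Adipoq was picked as the gene closest to Lpl on the same arrays. In this fit Mgll 1450391_a_at stood at -0.50 ± 0.15, 1453836_a_at at -0.44 ± 0.11 and 1426785_s_at at -0.30 ± 0.11. Their limma adjusted p-values were 0.129, 0.102 and 0.182. Lipe and Pnpla2, which fat cells also express strongly, stayed at -0.24 ± 0.12 and -0.09 ± 0.15. Aadac was at -0.48 ± 0.10 (limma adjusted p = 0.0774). This fit has 1 residual degree of freedom fewer per probe set, and 75 probe sets were called higher and 74 lower in it over the whole array.

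Faah, on the acylethanolamide side, had the only positive differences besides Lpl and 1 probe set of Abhd5. On 1434091_at the values were 8.87, 9.13 and 9.23 in wild type and 9.55, 9.08 and 9.39 in double knockout, and on 1421969_a_at 8.96, 9.12 and 9.25 against 9.26, 9.19 and 9.21. Double knockout mouse 2 lay within the wild type range on both. On 1421969_a_at mouse 3 did too, and mouse 1 lay just above that range. The differences were 0.27 ± 0.15 and 0.11 ± 0.10 (SE), with intervals of -0.10 to 0.63 and -0.13 to 0.35 and limma adjusted p-values of 0.309 and 0.509. Of 8 tested endocannabinoid and acylethanolamide genes, 0 were called by limma (1 higher and 1 lower at an unadjusted p under 0.05), with a median of -0.22. Gde1, a phosphodiesterase that can release anandamide, was at -0.38 ± 0.09 (limma adjusted p = 0.0625), and Fabp5, an intracellular carrier of anandamide, at 0.33 ± 0.11 (0.119). Naaa, the lysosomal counterpart of Faah, was at -0.18 ± 0.10. The receptor Cnr1 stood at 5.56, 5.59 and 5.09 in wild type and 5.31, 4.28 and 5.46 in double knockout, with double knockout mouse 2 lowest. Abhd6 and Abhd12, which share the substrate 2-arachidonoylglycerol with Mgll, were at 0.05 ± 0.09 and -0.24 ± 0.10 (limma adjusted p = 0.768 and 0.171). A second Abhd12 probe set gave a larger difference, -0.64 ± 0.17 (limma adjusted p = 0.0801).

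G0s2, Angptl4 and Angptl8, singled out after their values were seen, were high in a single double knockout mouse. G0s2, the protein inhibitor of ATGL, stood at 7.86, 8.22 and 7.94 in wild type and 7.85, 8.25 and 10.74 in double knockout mice 1, 2 and 3. Angptl4, an inhibitor of lipoprotein lipase, stood at 7.42, 8.22 and 7.66 against 7.91, 8.26 and 10.07. Angptl8, a further member of that family, stood at 3.77, 3.75 and 4.03 against 3.68, 4.35 and 5.32. These values lie close to the filter of 4, which Angptl8 exceeded only in wild type mouse 4 and double knockout mice 2 and 3. In all 3 cases double knockout mouse 3 was above every other mouse, and the group differences of 0.94 ± 0.71, 0.98 ± 0.56 and 0.60 ± 0.38 (SE) did not pass (limma adjusted p = 0.428, 0.302 and 0.351). The same mouse had the lowest Lipa. Its Pnpla2 value of 9.16 lay within the wild type range, and its Lpl value of 10.43 on 1415904_at lay just under the highest wild type value.

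**Figure D4:**
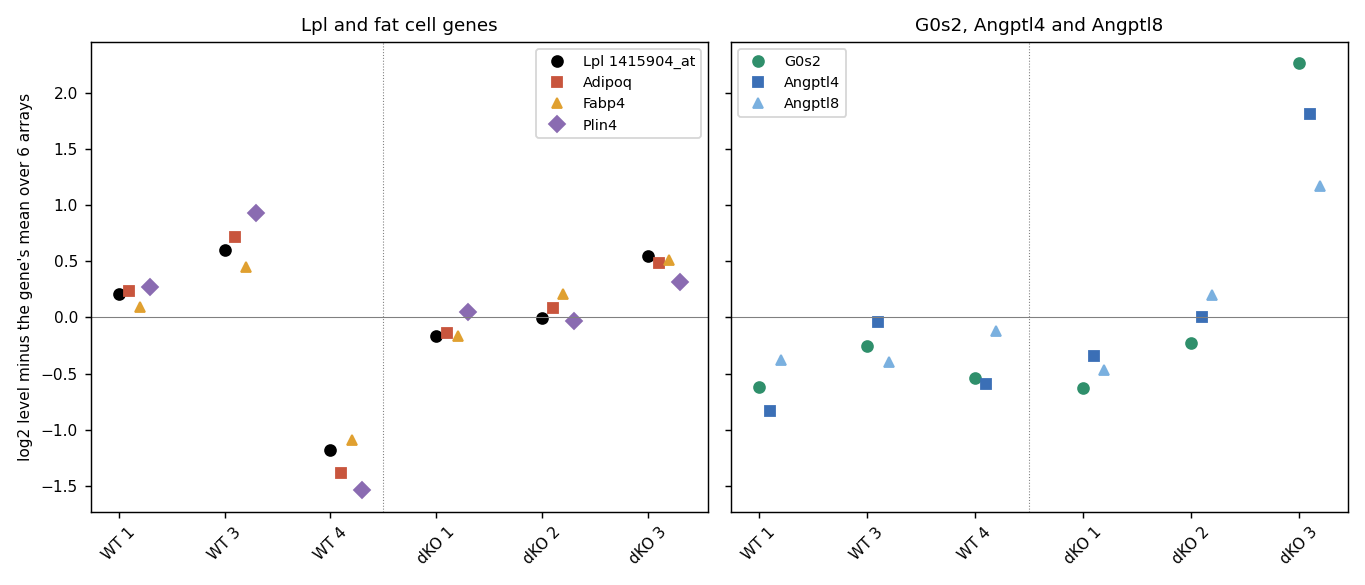
Log2 level of each gene in each mouse (WT, wild type; dKO, double knockout), minus the gene's mean over the 6 arrays; left, Lpl with the fat cell genes Adipoq, Fabp4 and Plin4, and right, G0s2, Angptl4 and Angptl8. Wild type mouse 4 is lowest for all 4 genes on the left, and double knockout mouse 3 is highest for all 3 on the right.

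The rest of the lipoprotein lipase system gave no call: of 10 tested genes, 0 passed by limma (2 higher and 1 lower at an unadjusted p under 0.05), with a median of 0.24. Furin, a protease that can cleave and inactivate lipases, was at 0.31 ± 0.08 (limma adjusted p = 0.0782), and Vldlr, a receptor for triglyceride-rich particles, at -0.41 ± 0.16 (0.165). The activator Apoc2 and the inhibitor Apoc3 were at -0.09 ± 0.09 and -0.11 ± 0.09. Apoc3 stood at 13.44, 13.38 and 13.40 in wild type and 13.30, 13.39 and 13.19 in double knockout, lowest in double knockout mouse 3. Apoc2 (13.47) and the mean of the enterocyte markers (13.29) were also lowest in that mouse. Gpihbp1, which holds the enzyme on capillaries, did not pass the filter, with values of 3.12 to 3.94 in wild type and 3.64 to 4.27 in double knockout. Of 9 tested genes of the droplet coat and of lipolysis control, 0 passed in either direction, 0 also at an unadjusted p under 0.05, with a median of 0.27. Those with the smallest p were Pde3b, which lowers cyclic AMP (0.46 ± 0.19, limma adjusted p = 0.187), and the droplet coat protein Plin2 (0.27 ± 0.12, 0.211).

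Other esterases and lipases of the cell were taken from a list of 27 symbols, of which 22 were on the array and 18 were tested. None of the 18 was called by limma (1 higher and 5 lower at an unadjusted p under 0.05, beside 28.0% of all tested genes), and 12 had negative and 6 positive differences, with a median of -0.16. The groups were apart for 5 lower genes and 1 higher gene, 6 of 18, beside 36.7% of all tested genes. The carboxylesterase Ces2g stood at 8.18, 8.75 and 8.70 in wild type and 9.02, 9.18 and 9.37 in double knockout (0.65 ± 0.18, limma adjusted p = 0.0826). Its family member Ces2e went the other way, at 12.07, 12.17 and 12.22 against 11.95, 11.76 and 11.91 (-0.28 ± 0.09, 0.114). Carboxylesterases are close copies of each other, and whether probes of these 2 genes also detect relatives was not tested. Of the secreted digestive lipases, Pnliprp2 (0.31 ± 0.57) and the colipase Clps (-0.43 ± 0.27) were tested and did not pass (limma adjusted p = 0.751 and 0.347). Of 7 pancreatic acinar markers on the array, 6 did not pass the filter, among them Cpa1. Cela1 was expressed on every array, at 6.87, 6.96 and 7.18 in wild type and 7.69, 7.75 and 7.42 in double knockout, with the groups apart (0.62 ± 0.13, limma adjusted p = 0.0506).

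Among the 12 transcription factors, 1 passed in each direction: Hnf4g, given above, and Ppard, a fatty acid sensing receptor. Ppard stood at 7.26, 7.60 and 7.49 in wild type and 8.40, 7.96 and 8.55 in double knockout and rose by 0.85 ± 0.17 (SE, limma adjusted p = 0.0489). Over all tested genes, with 1 probe set each, 4.78% were called, 3.17% higher and 1.60% lower. The Ppard call was lost in 10 and the Hnf4g call in 11 of 19 alternatives. Ppara, the relative that responds to fatty acids freed by ATGL, had 10.29, 10.33 and 10.37 against 8.97, 10.03 and 10.22, with double knockout mouse 1 far below the others (-0.59 ± 0.31, limma adjusted p = 0.265). Of 7 tested PPAR target genes, 0 passed by limma (0 higher and 1 lower at an unadjusted p under 0.05), with a median of -0.13. The lowest p-values were those of the peroxisomal enzyme Ehhadh (-0.38 ± 0.10, limma adjusted p = 0.0786) and of Acadl, which oxidizes long-chain fatty acids in mitochondria (-0.23 ± 0.12, 0.277).

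The remaining 4 probe sets of the set, 1 each of Mgll, Pnpla2, Lipe and Abhd5, lay between 0.82 and 2.46 on every array, under the filter, and hold little information. Among the other members, the closest patterns over the 6 arrays were Mxd4 for Mgll, Scpep1 for Pnpla2, Nipsnap1 for Lipe, Mau2 for Lipa, Zfp462 for Abhd5 and Necap1 for Faah. Their root mean square differences were 0.032, 0.031, 0.026, 0.044, 0.034 and 0.024 on the log2 scale.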

How the data were processed

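RNA of 1 jejunum per array was measured in 6 mice, from 500 ng total RNA per the labels' protocols. What the authors deposited is a log2 level for each probe set. The submitters' processing notes name GCRMA 2.18.0, with settings not given in the sources used here. The log2 scale was read from the values. The 64 control probe sets were removed and probe sets above 4 on at least 3 arrays kept (18013). The test was limma 3.58.1 under R 4.3.3 (eBayes after lmFit, no covariates, two-sided), with Benjamini-Hochberg adjustment over all tested probe sets and a threshold of 0.05; the fit was tested on simulated data. For other genes the probe set with the highest mean was used. Named were all members, the targeted genes, up to 4 called genes of each list or otherwise the 2 with the smallest p, genes with a known role beside a member, and the 3 closest patterns. Members and lists were chosen with earlier results of these data known. The number of arrays limits the precision. The labels name separate mice. Alternatives changed the filter, normalization, floor, variance prior, weights, covariates and mice included; the Adipoq covariate and the enterocyte scaling were added after seeing the data. Figures were drawn with matplotlib 3.10.9.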

Additional observations from a re-analysis of the deposited data

How the results depend on the processing

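Of 15 member probe sets, only Aadac passed in any fit. The other 14 gave 259 values over the alternatives, of which 0 passed, with a lowest limma adjusted p of 0.102. The Aadac call (-0.47) was kept with a stricter filter, median centring, values under 4 raised to 4, either variance prior with trend and array weights. The call was also kept, at -0.47 (limma adjusted p = 0.0356), with the probe sets of each gene averaged, although Aadac has only 1. It was lost, leaving 0 member probe sets lower, without the filter (-0.47), after quantile normalization (-0.42), with the 3′ to 5′ covariate (-0.53), relative to the enterocyte markers (-0.34), with Adipoq as a covariate (-0.48) and in all 6 fits that left out 1 mouse (-0.52 to -0.41; 0 to 0 called). The Adipoq covariate and the enterocyte scaling were chosen after seeing the data. With the mouse number as a replicate block Aadac was at -0.54 (limma adjusted p = 0.172) and 0 member probe sets were lower, with 2 higher and 11 lower over the array; only numbers 1 and 3 occur in both groups, deviations of same-numbered mice correlated at 0.02 and 0.30, and nothing says that numbers pair mice. Over the array, 458 probe sets were higher and 347 lower. These became 265 and 207 without the filter, 918 and 727 with a trend, 968 and 762 with a robust trend, 3 and 10 with the 3′ to 5′ covariate, 75 and 74 with Adipoq, 1665 and 299 relative to the enterocyte markers, and 11 to 196 higher and 21 to 239 lower without 1 mouse. The covariate, block and reduced fits have fewer residual degrees of freedom than the main fit. Why they gave fewer calls was not tested. The 3′ to 5′ fit gave 13 calls in all and the Adipoq fit 149. Only the 8 pathway lists, not the marker lists, were run under the alternatives. The transcription factor calls were lost in 10 (Ppard) and 11 (Hnf4g) of 19 alternatives, and each of the other 7 had at most 1 gene called in either direction in any of them.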
